A study of Mus musculus with 8 samples.

Results

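Megakaryocyte and platelet genes were followed in lung RNA from mice that lack all 3 nitric oxide synthases. The group was defined by name as Ppbp, Pf4, Itga2b, Gp1ba, Gp1bb, Gp9, Gp6, Tubb1 and Treml1, 9 genes whose products are characteristic of platelets and of the megakaryocytes that shed them. Of the 15728 genes listed by the authors, 8 were members. The expression of Gp1ba was not analysed here. Gp6 and Treml1 stayed below the limit of 1 count per 1000000 reads (CPM) in at least 4 libraries that was set for the test, and the other 6 were among the 14065 genes tested.

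The lung samples were 4 from C57BL/6J wild type mice and 4 from Triply n/i/eNOSs-/- mice, labelled as of C57BL/6J strain background. Both genotypes were 4 weeks old and unexposed. The missing enzymes are the neuronal, inducible and endothelial isoforms of nitric oxide synthase, lost in every cell and not in platelets alone. The sources used here give neither sex nor litter, nor whether the lungs were flushed of blood. The assay was CAGE (cap analysis of gene expression). Reads are counted at the capped 5′ ends of transcripts, so that a level in CPM does not scale with transcript length.

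Megakaryocytes are large polyploid cells that release platelets, small cells without a nucleus that carry RNA from the parent cell. Megakaryocytes are found in the lung as well as in the bone marrow, and platelets pass through the lung capillaries with the blood. Platelets stick to injured vessel walls through glycoprotein Ib-IX and glycoprotein VI, aggregate through the integrin αIIbβ3, and release granules filled with chemokines. Nitric oxide is a known inhibitor of platelet activation.

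The library totals recovered from the CPM were 15598154 to 18593913 reads in wild type and 13014134 to 15096188 reads in knockout libraries. Every library of the knockout was thus shallower than every library of wild type. For a gene at 0, 3 reads correspond to 0.161 to 0.231 CPM, a limit for counting error only. Nos3, the endothelial isoform, was at 18.2 to 22.8 CPM in wild type, against 5.56 to 8.83 CPM in the knockout (log2 fold change -1.38, SE 0.14, limma adjusted p = 4.58e-05). Where the deleted part of the gene lies relative to these reads was not tested. Nos1 and Nos2 were not analysed here. The 8 lung epithelial markers were all listed, and 1 rose and 3 fell. Across all genes tested, 16.6% were higher and 14.3% lower at a limma adjusted p under 0.05. The summed level of the markers was 162312 to 177612 CPM in wild type, against 128287 to 154933 CPM in the knockout. Most of that sum came from Sftpc and Scgb1a1. The mean of Sftpc went from 75406 to 40739 CPM, and that of Scgb1a1 from 83216 to 89790 CPM (limma adjusted p = 0.546). Nothing in the labels says more of the replicates than that they are separate samples, so p-values measure the spread between these samples.

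In the knockout, 3 of the 6 tested platelet genes fell, Ppbp, Tubb1 and Gp1bb, each to about 0.44 to 0.51 of its wild type mean. Pf4 and Itga2b had almost the same mean in both genotypes. Across all genes tested 30.9% were called at a limma adjusted p under 0.05, and 14.3% were called lower. On the recovered reads edgeR called 32.5% and DESeq2 31.7%, and both called the same 3 members lower. The groups did not overlap in 31.2% of genes tested. The count of members called higher was 0 (also 0 at an unadjusted p under 0.05, and 0 with edgeR and with DESeq2 on the recovered reads). The median log2 fold change of the 6 genes was -0.58, against 0.01 over all genes tested. Fold changes are knockout minus wild type on log2(CPM + 0.5), which understates the change of low genes. In bulk tissue, fewer platelets or megakaryocytes and less RNA per cell cannot be told apart.

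The sequences before the starts of 4 members are shown because 2 of these genes fell, Ppbp and Tubb1, and 2 did not pass the test, Pf4 and Itga2b. They are the 200 bases upstream of the RefSeq start (GRCm38.p6), while the submitters' processing notes name mm9. Capitals mark 3 kinds of letters, each searched on both strands. For ETS factors the letters were AGGAAG or else CGGAAG or else CGGAAA. For GATA factors the letters were AGATAA or else AGATAG or else TGATAA or else TGATAG. For the TATA box the letters were TATAAA.

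Ppbp, chr5:90768318-90768517, plus strand: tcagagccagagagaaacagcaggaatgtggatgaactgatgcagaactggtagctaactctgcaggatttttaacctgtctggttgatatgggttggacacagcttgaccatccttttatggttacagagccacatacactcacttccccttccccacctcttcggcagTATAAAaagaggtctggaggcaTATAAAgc
Tubb1, chr2:174450395-174450594, plus strand: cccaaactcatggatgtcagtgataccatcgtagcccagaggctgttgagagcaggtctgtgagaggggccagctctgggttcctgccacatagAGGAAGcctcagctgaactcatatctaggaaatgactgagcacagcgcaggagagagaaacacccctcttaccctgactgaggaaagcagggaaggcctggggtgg
Pf4, chr5:90772235-90772434, plus strand: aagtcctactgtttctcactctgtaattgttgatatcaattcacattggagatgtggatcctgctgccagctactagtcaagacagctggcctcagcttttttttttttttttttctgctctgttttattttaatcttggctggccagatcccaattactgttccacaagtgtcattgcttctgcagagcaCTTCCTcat
Itga2b, chr11:102469884-102470083, minus strand: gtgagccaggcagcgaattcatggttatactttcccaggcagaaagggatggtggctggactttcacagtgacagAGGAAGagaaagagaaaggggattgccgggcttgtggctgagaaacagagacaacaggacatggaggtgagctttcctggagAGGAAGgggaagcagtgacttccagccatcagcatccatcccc

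Windows of this kind were found for all 9 members. ETS letters were present in 6 of them (Gp1ba, Gp1bb, Gp9, Itga2b, Pf4 and Tubb1), against 37.2% of 32817 windows of the same length. GATA letters were present in 3 (Gp1ba, Gp1bb and Gp6), against 21.4%. TATAAA was found in Ppbp alone, at bases 30 to 25 and again at bases 8 to 3 before the start, and 9.96% of all windows held it. The RUNX letters TGTGGT were found in Gp9 (11.2% of windows). The NF-E2 letters TGAGTCA or TGACTCA, held by 3.66% of windows, were in none of the 9. These matches describe letters and are not binding sites. Among the 4 sequences shown, ETS letters stood in those of Tubb1, Pf4 and Itga2b.

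**Figure D1:**
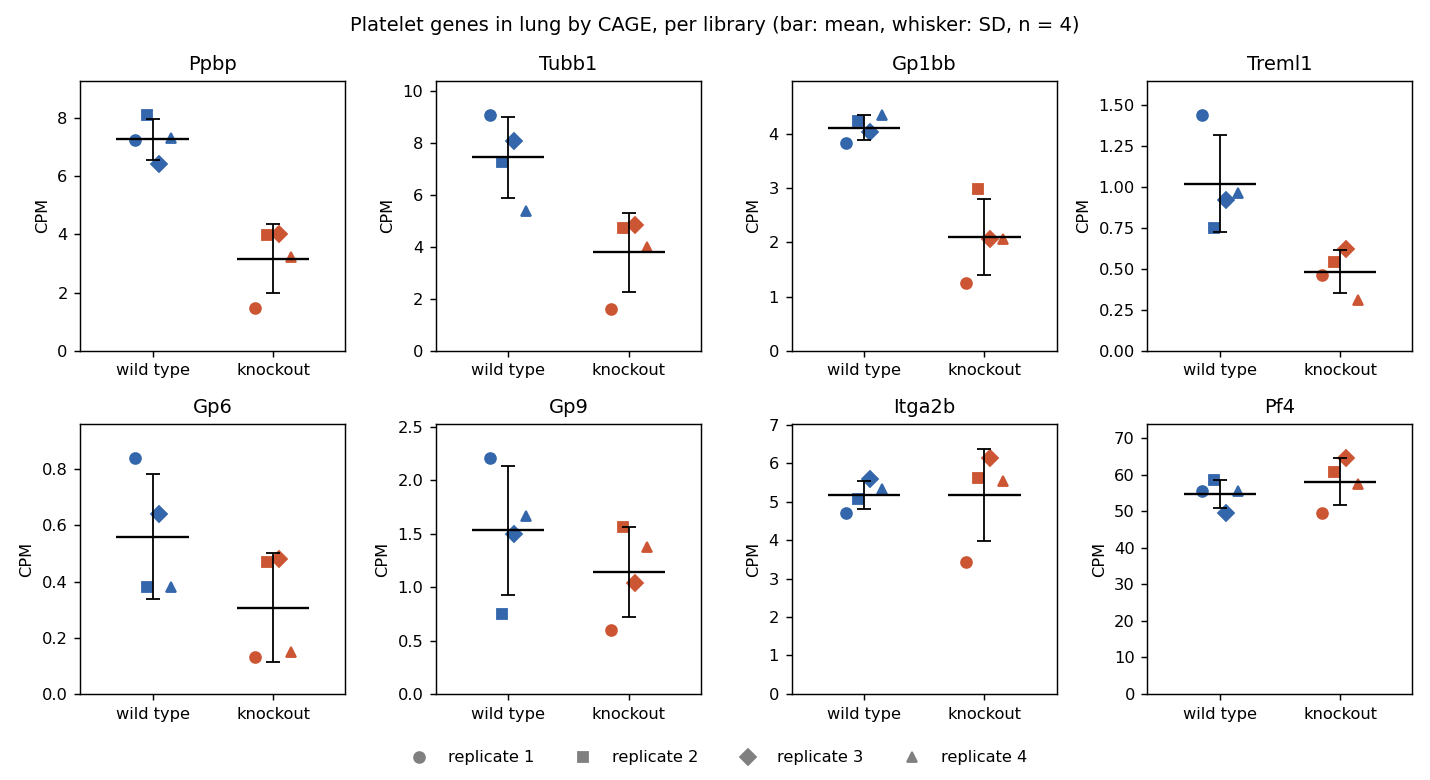
CPM (y axis, from 0, a separate scale for each gene) of the 8 listed platelet genes in each wild type and knockout library; symbols give the replicate number, bars the mean and whiskers the SD of 4 libraries. For Ppbp, Tubb1, Gp1bb and Treml1 every knockout library lies below every wild type library, while the groups overlap for Gp6, Gp9, Itga2b and Pf4.

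Of the alpha granule chemokine genes Ppbp and Pf4, only Ppbp passed the test. Ppbp encodes pro-platelet basic protein, the precursor of a neutrophil-attracting chemokine that is released when platelets are activated. Ppbp was at 7.24, 8.12, 6.41 and 7.31 CPM in wild type replicates 1 to 4, and at 1.46, 3.99, 4.00 and 3.23 CPM in knockout replicates 1 to 4. The groups did not overlap, and knockout replicate 1 was the lowest. The mean went from 7.27 ± 0.70 to 3.17 ± 1.20 CPM (SD, n = 4), based on 497 and 181 reads. The log2 fold change of Ppbp was -1.15 with an SE of 0.23 (limma adjusted p = 0.00403). Without knockout replicate 1 it fell by 0.87 (limma adjusted p = 0.000639).

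Pf4 encodes platelet factor 4, a chemokine that binds heparin. Some tissue macrophages are also known to express it. Pf4 was at 55.38, 58.46, 49.48 and 55.52 CPM in wild type and at 49.42, 60.72, 64.53 and 57.48 CPM in the knockout. The groups overlapped, with the lowest value again in knockout replicate 1. The means of Pf4 were 54.7 ± 3.76 and 58.0 ± 6.43 CPM in wild type and knockout (SD, n = 4; log2 fold change 0.08, SE 0.09, limma adjusted p = 0.517). Pf4 was the most abundant member in both genotypes, and its lowest library stood far above the highest library of any other member. Ppbp and Pf4 are neighbours on the chromosome, with 0 listed genes between them.

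Among the adhesion receptors, Gp1bb fell. It encodes the β chain of glycoprotein Ib, the receptor for von Willebrand factor. Gp1bb was at 3.83, 4.25, 4.04 and 4.36 CPM in wild type and at 1.26, 2.98, 2.07 and 2.07 CPM in the knockout, without overlap. The mean went from 4.12 ± 0.23 to 2.10 ± 0.70 CPM (SD, n = 4), based on 281 and 120 reads. The log2 fold change of Gp1bb was -0.87 with an SE of 0.18 (limma adjusted p = 0.005), and -0.70 without knockout replicate 1 (limma adjusted p = 0.00517). Gp1bb overlaps Sept5, a septin gene, on the same strand. The sources used here do not say how reads were divided between the pair. Sept5 itself had means of 2.51 ± 0.25 and 2.42 ± 0.49 CPM (SD, n = 4; limma adjusted p = 0.801).

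Gp9, the glycoprotein IX subunit of the same receptor, was lower in mean without passing the test. It was at 2.21, 0.75, 1.5 and 1.67 CPM in wild type and at 0.60, 1.56, 1.04 and 1.38 CPM in the knockout. The groups overlapped widely: wild type replicate 2 was lower than 3 of the knockout libraries. Its log2 fold change was -0.29 (SE 0.26, limma adjusted p = 0.426), from 103 reads in wild type and 65 in the knockout.

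Itga2b, the αIIb chain of the fibrinogen receptor and an early mark of the megakaryocyte lineage, was at 4.72, 5.06, 5.60 and 5.32 CPM in wild type. In the knockout it was at 3.44, 5.61, 6.14 and 5.53 CPM. The groups overlapped, with knockout replicates 2 and 3 above the wild type range and knockout replicate 1 below it. The means were 5.18 ± 0.38 and 5.18 ± 1.19 CPM (SD, n = 4; log2 fold change -0.02, SE 0.16, limma adjusted p = 0.921). Without knockout replicate 1 the log2 fold change was 0.14 (limma adjusted p = 0.349). Its partner chain gene Itgb3, which other cells also express, was at 18.0 ± 2.09 and 18.3 ± 2.41 CPM (SD, n = 4; limma adjusted p = 0.892).

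Gp6, the collagen receptor of platelets, was close to the limit of detection. It had 14, 7, 11 and 6 reads in wild type and 2, 7, 7 and 2 reads in the knockout, or 0.13 to 0.84 CPM over all 8 libraries. The groups overlapped. With the limit on low values removed, Gp6 did not pass (edgeR on recovered reads, log2 fold change -0.84, adjusted p = 0.196).

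Tubb1 encodes β1-tubulin, the tubulin that forms the marginal band of microtubules in platelets. It was at 9.09, 7.26, 8.08 and 5.39 CPM in wild type and at 1.59, 4.73, 4.83 and 4.00 CPM in the knockout. The groups did not overlap, although wild type replicate 4 was only slightly above knockout replicate 3. The mean went from 7.46 ± 1.57 to 3.79 ± 1.51 CPM (SD, n = 4). The log2 fold change of Tubb1 was -0.96 with an SE of 0.27 (limma adjusted p = 0.0213), and -0.65 without knockout replicate 1 (limma adjusted p = 0.0132). The call ended without wild type replicate 1 (limma adjusted p = 0.0608) or wild type replicate 3 (limma adjusted p = 0.0564; 0.00165 to 0.0608 over all alternatives).

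Treml1, a receptor stored in alpha granules and moved to the surface of activated platelets, was low in all libraries. It was at 1.44, 0.75, 0.92 and 0.96 CPM in wild type and at 0.46, 0.54, 0.62 and 0.31 CPM in the knockout, without overlap. These values rest on 69 reads in wild type and 28 in the knockout. With the limit on low values removed, Treml1 was lower by limma (log2 fold change -0.62, adjusted p = 0.0198) and by edgeR on recovered reads (log2 fold change -1.07, adjusted p = 0.0246). Those fits called 28.3% and 29.7% of 15728 genes.

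In wild type the order of mean levels was Pf4, Tubb1, Ppbp, Itga2b, Gp1bb, Gp9, Treml1 and Gp6. The ranges of Tubb1 and Ppbp, of Gp9 and Treml1, and of Treml1 and Gp6 overlapped. In the knockout Itga2b stood second, ahead of Tubb1, Ppbp and Gp1bb, and each gene after Pf4 overlapped in range with the next one. Relative to the mean, the SD of Ppbp, Gp1bb and Itga2b was 9.61%, 5.69% and 7.25% in wild type. In the knockout it was 37.7%, 33.5% and 23.0%, with knockout replicate 1 the lowest library for each. For Pf4, Tubb1 and Gp6 it was 6.88%, 21.0% and 39.9% in wild type, against 11.1%, 39.9% and 63.0% in the knockout. Gp9 and Treml1 had no larger SD in the knockout, with 39.4% and 29.1% in wild type, against 36.9% and 27.4%.

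**Figure D2:**
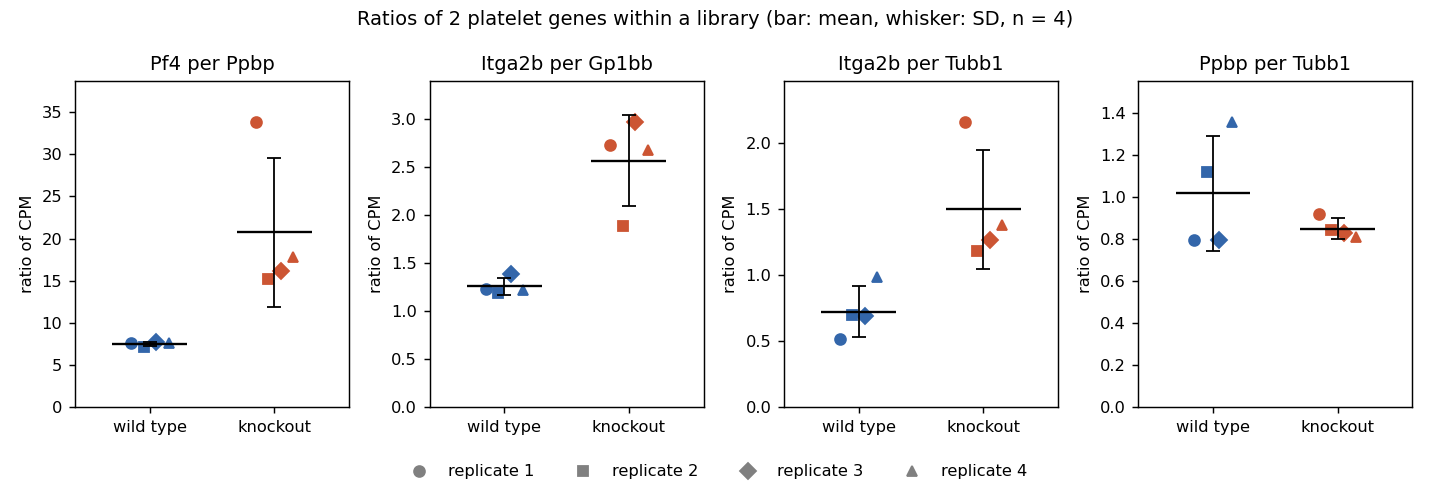
Ratio of the CPM of 2 platelet genes in the same library (y axis, from 0) for wild type and knockout; symbols give the replicate number, bars the mean and whiskers the SD of 4 libraries. The ratios of Pf4 to Ppbp, Itga2b to Gp1bb and Itga2b to Tubb1 are higher in every knockout library than in any wild type library, whereas the ratio of Ppbp to Tubb1 overlaps.

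Ratios within a library do not depend on the library total, and some of them differed between the genotypes without overlap. Pf4 was 7.65, 7.2, 7.72 and 7.6 times Ppbp in wild type and 33.8, 15.2, 16.1 and 17.8 times Ppbp in the knockout. Itga2b was 1.19 to 1.39 times Gp1bb in wild type and 1.88 to 2.97 times Gp1bb in the knockout. Itga2b was 0.52 to 0.99 times Tubb1 in wild type and 1.19 to 2.16 times Tubb1 in the knockout. The ratio of Ppbp to Tubb1 ran from 0.79 to 1.36 in wild type and from 0.81 to 0.92 in the knockout, and so overlapped.

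All 15 pairs of the 6 tested genes were compared in this way on log2(CPM + 0.5), a comparison chosen after the values were seen. The groups did not overlap for 6 pairs, each made of 1 of Ppbp, Tubb1 and Gp1bb with 1 of Pf4 and Itga2b. Each of the 6 had p = 0.0286 by a two-sided exact permutation test, the smallest p that 4 against 4 libraries allow, and p = 0.0714 after Benjamini-Hochberg adjustment over the 15. None of the pairs thus passed 0.05 after adjustment. The 15 pairs share the same 6 genes, so they are independent neither of each other nor of the calls of single genes. The log2 ratio of Ppbp to Pf4 changed from -2.83 ± 0.04 to -4.06 ± 0.41 (SD, n = 4). Within the genes that fell, the log2 ratio of Ppbp to Gp1bb was 0.75 ± 0.12 in wild type and 0.47 ± 0.28 in the knockout (exact permutation p = 0.114, adjusted p = 0.171).

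**Figure D3:**
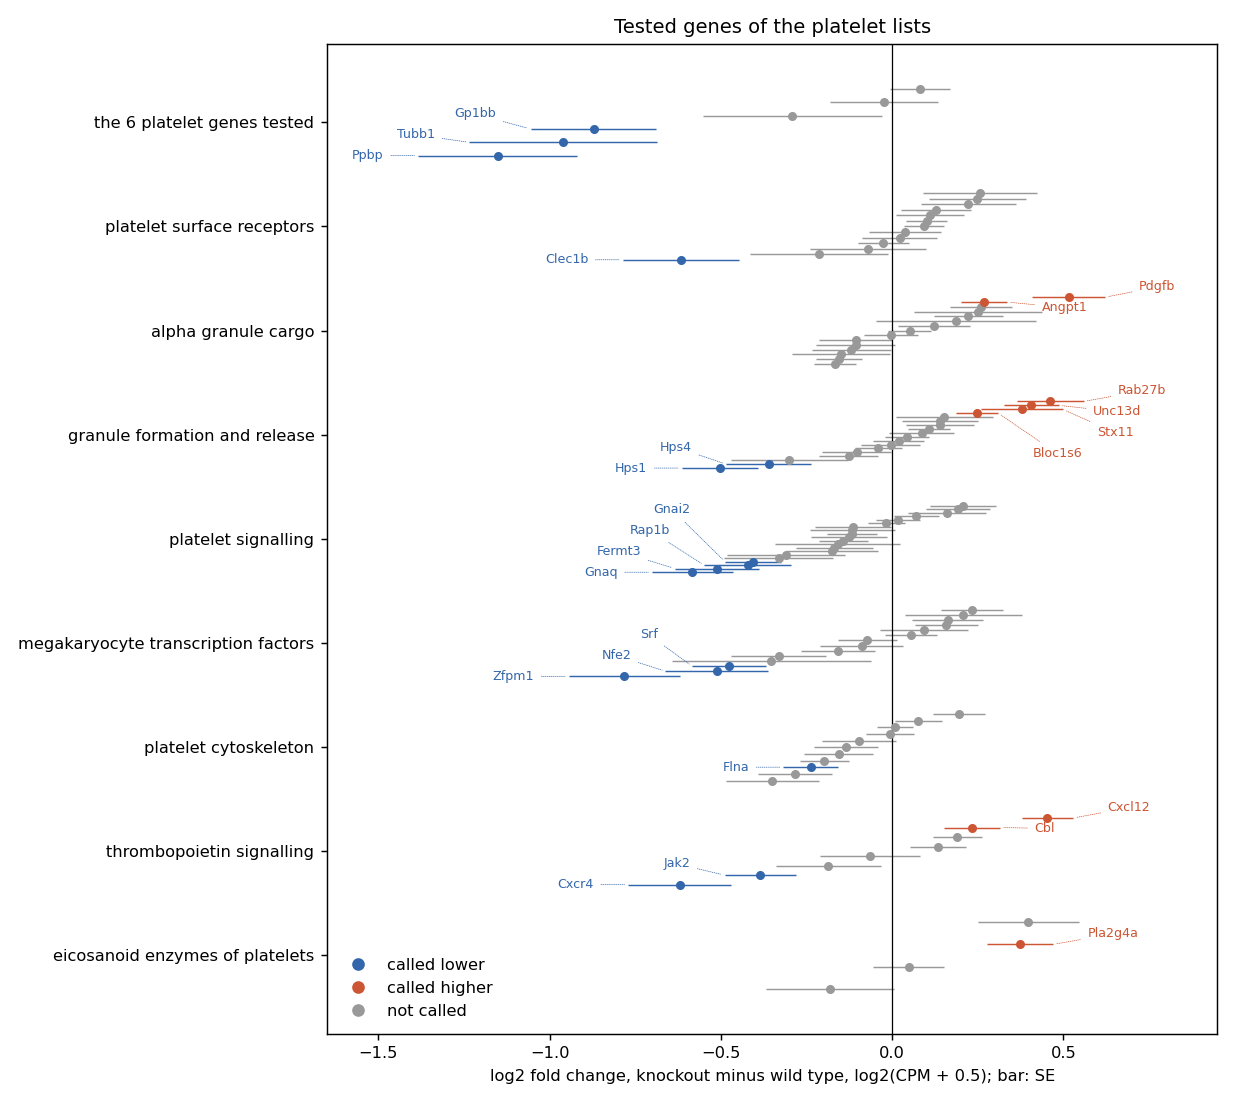
Log2 fold change (x axis, knockout minus wild type, log2(CPM + 0.5), bars give the SE) of every tested gene in 9 lists of platelet and megakaryocyte genes; blue marks genes called lower, red genes called higher and grey genes not called. Ppbp, Tubb1 and Gp1bb have the lowest values of all genes shown.

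The counts in the lists that follow stand beside 16.6% of all tested genes called higher and 14.3% called lower. Of 13 tested receptors of the platelet surface, 1 fell: Clec1b, the receptor for podoplanin, ranged over 5.58 to 8.37 CPM in wild type libraries and over 3.38 to 5.95 CPM in the knockout (log2 fold change -0.62, limma adjusted p = 0.0178). Its groups overlapped, the call ended without wild type replicate 1 or 2 (limma adjusted p up to 0.0545), and the gene overlaps Clec9a on the same strand. The median log2 fold change of the list was 0.09, against 0.01 over all genes. Receptors that define platelets more strictly were scarce: Gp5, the glycoprotein V partner of Gp1bb and Gp9, had 5 reads in wild type and 8 in the knockout, and Mpig6b, an inhibitory receptor listed as AU023871, had 8 and 2. The ADP receptor gene P2ry12 had 31 and 27 reads.

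Of 15 tested genes for alpha granule cargo 2 rose and 0 fell, a share of higher genes below the 16.6% over all genes. Pdgfb, a growth factor also made by endothelial cells, went from 43.2 ± 4.61 to 62.1 ± 9.10 CPM (SD, n = 4; limma adjusted p = 0.00435), and Angpt1 went from 79.4 ± 3.98 to 95.8 ± 7.04 CPM (limma adjusted p = 0.0123). Vwf, the carrier protein that tethers platelets and that endothelial cells also make, ranged over 37.7 to 52.0 CPM in wild type libraries and over 39.8 to 47.3 CPM in the knockout (limma adjusted p = 0.472). Mmrn1, the alpha granule protein multimerin, was at 8.74 ± 0.82 and 8.11 ± 1.20 CPM (SD, n = 4; limma adjusted p = 0.516). Below the limit on low values, Egf had 57 reads in wild type and 16 in the knockout (edgeR adjusted p = 0.0357). The list's median was 0.05.

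Of 18 tested genes that build or release granules 4 rose and 2 fell, a share near the 30.9% called over all genes in either direction. Rab27b, a small GTPase of dense granule release, went from 18.0 ± 0.85 to 25.1 ± 3.28 CPM (SD, n = 4; limma adjusted p = 0.0051). Unc13d, a priming factor of granule fusion, rose by 0.41 on the log2 scale (limma adjusted p = 0.00344), as did Bloc1s6 by 0.25 (limma adjusted p = 0.011) and Stx11 by 0.38 (limma adjusted p = 0.0324, up to 0.087 over the alternatives). Hps1, whose loss causes a platelet storage pool defect, went from 10.01 ± 1.38 to 6.88 ± 0.50 CPM (limma adjusted p = 0.00665), and Hps4 fell as well (limma adjusted p = 0.0466, up to 0.132 over the alternatives). The median was 0.06.

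Of 20 tested platelet signalling genes 4 fell and 0 rose, fewer calls than the 30.9% over all genes in either direction and a share of lower genes near the 14.3% over all genes: Gnaq (log2 fold change -0.58, limma adjusted p = 0.00401), Gnai2 (-0.41, limma adjusted p = 0.00381), Fermt3 (-0.51, limma adjusted p = 0.00944) and Rap1b (-0.42, limma adjusted p = 0.0265). Gnaq and Gnai2 encode G protein α subunits, and Fermt3 and Rap1b products that switch on integrins. All 4 are also expressed in other cells of the lung, and Gnaq and Fermt3 overlap other listed genes. The call of Rap1b was lost without replicates 2 or 4 of wild type and without replicates 3 or 4 of the knockout (each left out alone; limma adjusted p up to 0.0756). Rgs18, a regulator of G protein signals that is enriched in platelets, was at 2.81 ± 0.29 and 2.22 ± 0.57 CPM (SD, n = 4; limma adjusted p = 0.195). The median of the list was -0.13.

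Of 14 tested megakaryocyte transcription factors 3 fell and 0 rose, fewer calls than the 30.9% over all genes in either direction. Zfpm1, the cofactor of GATA factors, went from 14.6 ± 1.71 to 8.47 ± 2.24 CPM (SD, n = 4; limma adjusted p = 0.00472) without overlap, in a locus shared with Gm20388 on the same strand. Nfe2, the factor needed for platelet release, went from 6.60 ± 0.99 to 4.5 ± 0.85 CPM (limma adjusted p = 0.0236) with overlap, and 5 of the 8 ways of leaving out 1 library ended its call (wild type replicates 1, 2 and 3 and knockout replicates 3 and 4, with a limma adjusted p up to 0.0702). Srf fell by 0.48 on the log2 scale (limma adjusted p = 0.00732). Gata1, the central factor of the lineage, had 6 reads in wild type and 10 in the knockout. Fli1 and Runx1 did not pass (limma adjusted p = 0.555 and 0.607). The median was -0.08.

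Of 11 other cytoskeletal genes of platelets, Flna fell (log2 fold change -0.24, limma adjusted p = 0.0424), and its call was lost with any of wild type replicates 1 to 3 or knockout replicates 3 and 4 left out, and without a variance trend (limma adjusted p up to 0.117). The median was -0.14. In the list of thrombopoietin signalling 8 genes were tested. Cxcl12 and Cbl rose, and Cxcr4 and Jak2 fell. The call of Cbl (limma adjusted p = 0.049) was lost under 13 of 19 alternatives, each of the 8 ways of leaving out 1 library among them, and that of Jak2 without knockout replicate 3. Cxcl12 is the ligand of Cxcr4, the pair that holds megakaryocytes in their niche. Cxcl12 went from 165 ± 11.7 to 227 ± 19.3 CPM (SD, n = 4; limma adjusted p = 0.00138) and Cxcr4 from 3.99 ± 0.59 to 2.43 ± 0.48 CPM (limma adjusted p = 0.0101). The median of that list was 0.04. Of 4 eicosanoid enzymes Pla2g4a rose (log2 fold change 0.37, limma adjusted p = 0.0132), and the list's median was 0.21.

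**Figure D4:**
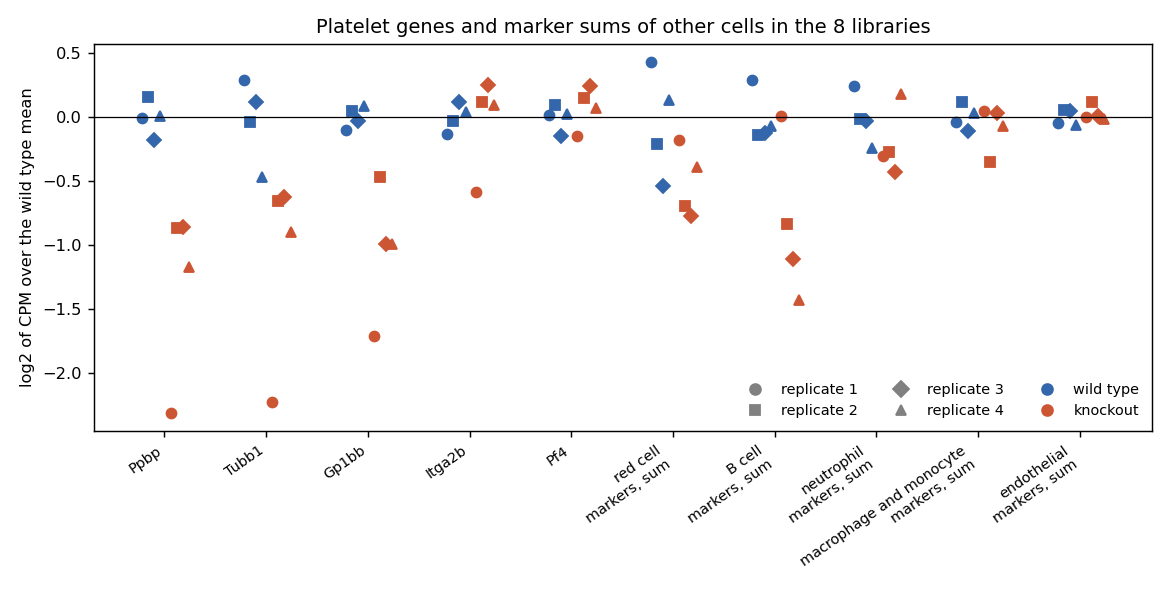
Log2 of the CPM in each library over the wild type mean (y axis) for 5 platelet genes and for the summed CPM of 5 marker lists of other cells; blue symbols are wild type and red symbols knockout libraries, and the symbol shape gives the replicate number. Knockout replicate 1 is the lowest library for all 5 platelet genes, while its red cell and B cell sums are the highest among the knockout libraries.

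Markers of other blood cells were followed in the same libraries, against 14.3% of all tested genes called lower. Of 11 tested red cell markers 7 fell and 1 rose, with a median log2 fold change of -0.60. Their summed level was 8915 to 17481 CPM in wild type, against 7577 to 11436 CPM in the knockout, and none of the 13 listed markers was at 0 in every library. Alas2, the first enzyme of heme synthesis in red cells, went from 45.2 ± 8.68 to 29.8 ± 6.67 CPM (SD, n = 4; limma adjusted p = 0.0138). The α-globin gene Hba-a1 was the 1 marker that rose, while its near-identical copy Hba-a2 fell, so the division of reads between that pair is uncertain. The adult β-globin gene Hbb-bs, listed as Hbb-b1, was at 7204 to 14284 CPM in wild type, against 6076 to 9029 CPM in the knockout (limma adjusted p = 0.0751). Of 10 tested B cell markers 6 fell (median -0.90), with sums of 163 to 220 CPM in wild type, against 66.5 to 181 CPM in the knockout. Without knockout replicate 1 all 10 B cell markers fell. Below the limit on low values, the B cell marker Cr2 had 42 and 12 reads (edgeR adjusted p = 0.0485). Of 10 tested T cell markers 2 fell, and their sum went from 52.1 to 61.9 CPM in wild type to 37.8 to 49.2 CPM in the knockout. Of 11 tested neutrophil markers 2 fell, with sums of 468 to 656 and 411 to 627 CPM. The counts for T cells and neutrophils are near the share over all genes. The part of the amount of blood in the lung in the values of Ppbp, Tubb1 and Gp1bb was not tested.

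Cells that can share single platelet genes were checked in the same way, against 16.6% of all tested genes called higher and 14.3% called lower. Of 16 macrophage and monocyte markers 4 rose (Marco, C1qc, Csf1r and F7) and 2 fell (Lyve1 and Cd163). Their median log2 fold change was 0.19, against 0.01 over all genes tested. The sum was 813 to 948 CPM in wild type, against 687 to 905 CPM in the knockout. Its largest parts were Chil3 and Lyve1. The mean of Chil3 went from 326 to 258 CPM (limma adjusted p = 0.21), and that of Lyve1 from 157 to 112 CPM (limma adjusted p = 0.00481). Marco went from 36.5 ± 1.99 to 53.9 ± 6.52 CPM (SD, n = 4; limma adjusted p = 0.00133). Cd68 was at 53.8 ± 2.79 and 56.4 ± 4.96 CPM (SD, n = 4; limma adjusted p = 0.557). Of 3 tested mast cell and basophil markers 1 rose, Cma1, a mast cell chymase (limma adjusted p = 0.0358), a call lost under 6 of the ways of leaving out 1 library. Below the limit on low values, the tryptase gene Tpsab1 had 2 reads in wild type and 40 in the knockout (edgeR adjusted p = 0.000524) and Mcpt4 had 27 and 46 (edgeR adjusted p = 0.0962). The sums of that list were 127 to 153 and 128 to 150 CPM, nearly all from Kit and Hdc, and 5 of its 10 names were not analysed here. Of 10 endothelial markers 3 rose, with sums of 1948 to 2119 and 2010 to 2205 CPM. The part of these cells in the level of Pf4 or Itga2b was not tested.

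Within the genotypes the mean deviation of the tested platelet genes was farthest from 0 in knockout replicate 1, though single genes also varied in wild type. The mean of the standardised deviations of the 6 tested genes from their genotype means was -1.91 in that library, 0.29 to 0.93 in the other knockout libraries and -0.14 to 0.18 in wild type. Its depth of 15096188 reads was the highest of the knockout group. The 8 genes most like this pattern, among 11335 other genes with a mean of at least 5 CPM, were Bet1, Map9, Cdc20, Schip1, Snord123, Csf2rb2, Mrpl34 and Tspan11. Pearson's r over the 8 libraries was 0.97 to 0.99 and Spearman's rho 0.79 to 0.95, given as a description of genes picked for a high r. Without the 2 libraries farthest from the median, knockout replicates 1 and 2, r over the other 6 was 0.72 to 0.93. Cdc20, a regulator of mitosis, shows the pattern: it overlaps Elovl1 and was at 6.56 CPM in knockout replicate 1 and at 33.1 to 36.1 CPM in the other knockout libraries, against 7.05 to 8.78 CPM in wild type.

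**Figure D5:**
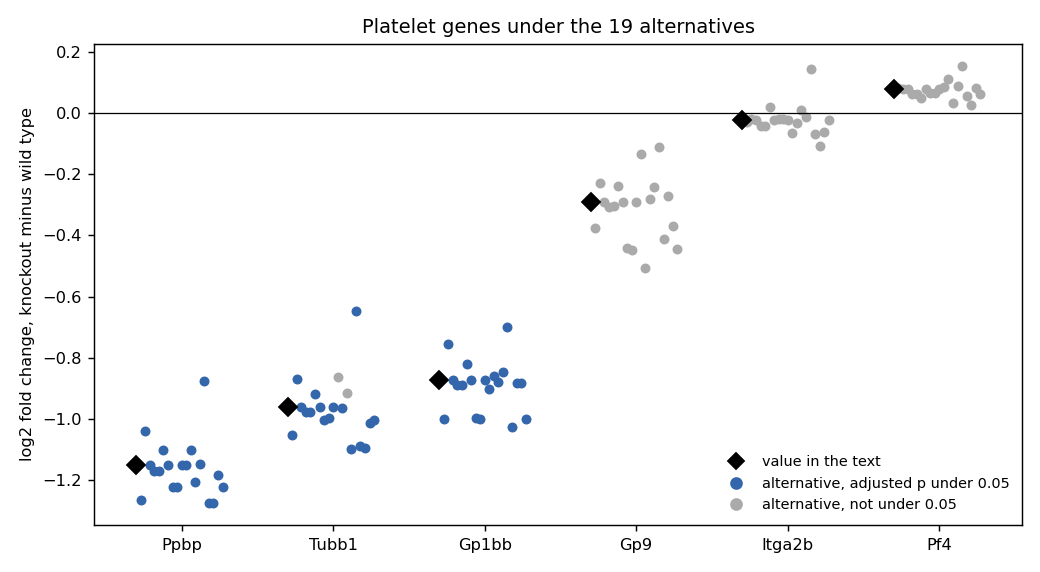
Log2 fold change (y axis, knockout minus wild type) of the 6 tested platelet genes as given in the text (black) and under 19 other ways of processing (blue where the adjusted p is under 0.05, grey otherwise). Ppbp and Gp1bb keep an adjusted p under 0.05 in all 19, Tubb1 in 17, and Gp9, Itga2b and Pf4 in none.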

How the data were processed

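CAGE libraries of total lung RNA, 4 of wild type and 4 of knockout mice, were multiplexed and read from 1 end, per the labels' protocols. BWA 0.7.12-r1039, HISAT2 2.0.5, edgeR and mm9 are named in the submitters' processing notes, with no role or order. The sources used here do not give how tags were assigned to genes or whether strand was used. The values deposited by the authors are CPM with 2 decimals. From the values, each column holds whole multiples of 1 read (100% of them to within 0.1 reads), which gave the reads and totals. Since reads carry no molecular identifiers as far as stated, intervals and limits cover counting error only.

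The test was limma 3.58.1 (R 4.3.3) on log2(CPM + 0.5) for genes that reached 1 CPM in 4 or more libraries, with a variance trend, genotype as the only term and Benjamini-Hochberg adjustment over all genes tested. edgeR 4.0.16 (quasi-likelihood) and DESeq2 1.42.0 were run on the recovered reads as alternatives, and the closing section gives the others. Ratios within a library were compared by exact permutation tests. The fits were also run on simulated counts, with the same spread between libraries set for every gene, and no result given here rests on that run. The members, the 17 gene lists and the motifs were chosen with earlier results of these data known. Named are the members, in each list up to 4 called genes with the smallest adjusted p, the first 2 genes of marker lists, and 8 genes of similar pattern. Outside that rule, and chosen after values were seen, are Gp5, Mpig6b, P2ry12, Itgb3, Vwf, Mmrn1, Stx11, Hps4, Rgs18, Gata1, Fli1, Runx1, Egf, Cr2, Alas2, Hba-a1, Hba-a2, C1qc, F7, Chil3, Tpsab1, Mcpt4, Kit, Hdc, Scgb1a1, Sept5, Nos3, Cxcl1, Cxcl3, Cxcr1 and Cxcr2. Names were looked up by identifier in GENCODE M21, which holds 15066 of 15728. Promoter sequences are from RefSeq (GRCm38.p6). Among the members, a copy of at least 97% identity over 75 nt near the 5′ end was found for none.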

Additional observations from a re-analysis of the deposited data

Results flagged for a closer look

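In 50 groups of 4 libraries (the 8 listed platelet genes and the 17 marker or gene list sums, in each genotype), 2 had 1 library set apart from the other 3 by a gap past Dixon's limit, and chance sets apart about 1 in 20. The summed B cell markers were 219.6 CPM in wild type replicate 1, against 162.6 to 171.4 CPM in the other wild type libraries. The summed endothelial markers were 2205 CPM in knockout replicate 2, against 2010 to 2043 CPM in the other knockout libraries. None of the platelet genes was set apart in this way. Knockout replicate 1, lowest in several of them, did not reach that limit.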

How the results depend on the processing

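The 19 alternatives were other pseudocounts (0.1 and 1), no limit on low values, TMM, median-ratio and quantile scaling, no variance trend, edgeR and DESeq2 on recovered reads, the replicate block, leaving out each library, and, added after seeing the data, edgeR with no limit on low values. Called members were 3 lower in all of them except without wild type replicate 1 or 3 (2 lower, as Tubb1 lost its call) and without the limit on low values by limma or edgeR (4 lower, as Treml1 was then tested). Leaving out 1 library gave 1741 to 2387 higher and 1552 to 2100 lower genes. TMM moved the median of all genes from 0.01 to -0.01, less than 0.1 on the log2 scale. Of 70 genes followed, 52 kept their call and direction throughout and 0 of the other 18 reversed. Counts in small lists moved: B cell markers lower were 5 to 10, red cell markers lower 5 to 9, and cytoskeletal genes lower 0 to 4.

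The labels give both genotypes the numbers 1 to 4 without saying that a number marks a shared litter or day. Deviations of same-numbered libraries correlated at 0.04, 0.03, -0.0029 and 0.06, and not every library correlated best with its own number. With the replicate block 2384 genes were higher and 2014 lower, and 3 platelet genes were lower. Precision for Gp9, Treml1 and Gp6 is limited by their 103 and 65, 69 and 28, and 38 and 18 reads.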

Other observations

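Of 6 listed CXC chemokine genes and receptors related to Ppbp and Pf4, 1 was tested, and it rose. Cxcl15, the lung-specific member made by epithelial cells, went from 567 ± 68.5 to 774 ± 73.5 CPM (SD, n = 4; limma adjusted p = 0.00478). Cxcl1, a neutrophil attractant, had 5 reads in wild type and 77 in the knockout. It was at 0.00 to 0.12 CPM in wild type and 0.90 to 1.56 CPM in the knockout (edgeR on recovered reads with no limit on low values, adjusted p = 0.000111). Cxcl3, the next listed gene beside Pf4, had 6 and 25 reads (edgeR adjusted p = 0.062). Of the receptor genes for these ligands, Cxcr2 had 62 reads in wild type and 40 in the knockout (edgeR adjusted p = 0.598) and Cxcr1 had 21 and 43 (edgeR adjusted p = 0.0359).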
